A study of Caenorhabditis elegans with 6 samples.

Results

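The col genes are the largest named class of cuticle collagen genes of the nematode *Caenorhabditis elegans*, and their RNA was compared between fed first-stage larvae (L1) and embryos of mixed ages. Members were the genes whose array annotation gives a symbol made of col, a hyphen and a number, on a probe set that names no other gene. A total of 128 genes of the 17118 measured met this rule, each read by its probe set with the highest mean. Both stages were of the wild-type strain N2. Eggs for the L1 samples were left 24 h in M9 buffer at 20 °C to hatch, and the larvae were then fed the *Escherichia coli* strain HB101 at 10 mg/mL for 3 h, at 10 worms per µL. The embryos, titled XX and of no single age, were released by bleach from gravid adults grown on HB101. Each stage had 3 one-channel Affymetrix arrays, hybridised with cRNA from 8 µg of RNA per sample, and their number limits the precision.

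The cuticle is the collagen-rich coat of the worm, secreted by the epidermis, which *C. elegans* workers also call the hypodermis. A first cuticle is laid down late in embryonic development and is worn at hatching, and each moult replaces it with a new one. Cuticle collagens are small proteins with short blocks of Gly-X-Y repeats that form a triple helix after prolines are hydroxylated in the endoplasmic reticulum; they are then secreted, trimmed by proteases and cross-linked. Many collagen genes are transcribed in waves tied to the making of a cuticle, and some mark a single stage, such as the dauer or the adult. Most col genes have no assigned role of their own, so they are ordered here by the stage in which their RNA was higher.

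Values are RMA expression values on the log2 scale, and each difference is fed L1 minus mixed embryo, with its standard error (SE) from the moderated limma fit over all 17118 genes. A gene passed at a Benjamini-Hochberg adjusted p under 0.05, and rose and fell are used of such genes only. The foreign control level of 5.43 was the highest value among 32 probe sets for bacterial and yeast transcripts, and a gene was above it in a stage if all 3 arrays were. Over probe sets, which are no replicates of each other, r was 0.993 to 0.997 between arrays of a stage and 0.775 to 0.790 between stages. All 10 embryo markers fell and all 8 markers of feeding larvae rose, whereas 0 of 8 markers of gravid adults passed the limma fit and 1 had an unadjusted p under 0.05. Those 8 averaged 5.00 to 5.01 per array in L1, where 6 were at the level, and 4.94 to 5.08 in embryos, where 5 were, and of them the yolk gene *vit-6* alone was above it in both stages, at 6.06 in L1 and 5.85 in embryos. Of 23 major sperm protein genes, 10 rose, or 43.5%, and 0 fell in the limma fit (1 lower at an unadjusted p under 0.05). Their per-array means were 5.59 to 5.72 in L1, where 6 were at the level, and 5.35 to 5.36 in embryos, where 11 were. For comparison with all these marker counts, 33.2% of all genes rose and 31.2% fell. The labels name the source of the L1 samples as embryos, but their titles, descriptions and stage entries give L1. By their labels the embryo arrays belonged first to an earlier series and were analysed anew, so stage cannot be told apart from array set, nor from hatching in buffer and feeding. The titles of the 3 embryo samples share a single code and differ only in a last letter, A to C. Nothing in the labels says that the 3 samples of a stage came from separate cultures, so p-values cover no more than the spread among these samples, and that spread may be technical.

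More col genes fell than rose in fed L1 larvae, and fitted differences ran from -5.54 for *col-121* to 3.80 for *col-103*. In the limma fit 44 of 128 genes fell, or 34.4%, against 31.2% of all genes. A further 22 rose, or 17.2%, against 33.2% of all genes. Together 66 passed, or 51.6%, against 64.4% of all genes, and 62 did not. With a change of at least 2-fold also required, 22 fell and 9 rose, which are 17.2% and 7.03% of the class, against 17.5% and 17% of all genes. At 4-fold or more the counts were 10 falls and 6 rises, or 7.81% and 4.69%, against 7.47% and 7.78% of all genes, so the share of large falls was near that of all genes. In bulk RNA, fewer cells of a type and less RNA per cell cannot be told apart.

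The median difference over the 128 col genes was -0.13, against 0.05 over all genes, and the middle of the class was narrow. Its quartiles lay at -0.55 and 0.14, against -0.56 and 0.51 over all genes, and 80 members, or 62.5%, lay within 0.5 of 0, against 48.4% of all genes. For 70 members, or 54.7%, no L1 array lay within the range of the embryo arrays or the reverse, against 70.6% of all genes. L1 was the higher stage in 24 of these, or 18.8% of the class, against 37.8% of all genes, and the lower one in 46, or 35.9%, against 32.8% of all genes. None of the 31 changes of at least 2-fold had overlapping arrays, and the highest limma adjusted p among these 31 was 0.00021. No like count was made over all genes, and changes of this size leave little room for overlap, so nothing is read from it about the class. When arrays were instead centred on ribosomal protein genes, which moved the median of all genes by -0.35, 10 col genes rose and 89 fell, so that rises made up 10.1% of the col genes called rather than 33.3%. All genes shifted the same way, with 22.8% higher and 56.6% lower, and rises made up 28.7% of their calls rather than 51.6%.

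**Figure D1:**
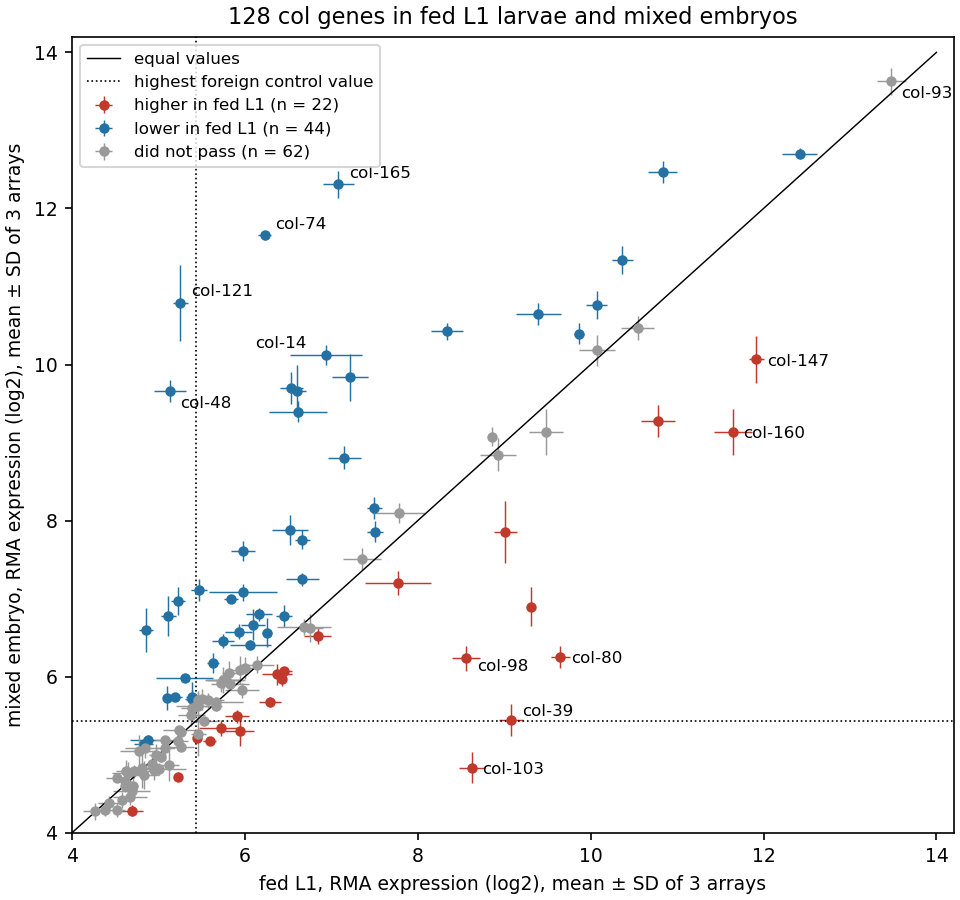
Mean RMA value (log2) in fed L1 on the horizontal axis against mixed embryo on the vertical axis for 128 col genes, with bars of 1 SD over 3 arrays, colours for the limma call and dotted lines at the foreign control level of 5.43. *col-121*, *col-74*, *col-165* and *col-48* lie far above the diagonal, at embryo means of 9.66 to 12.31, and *col-103*, *col-39* and *col-80* lie far below it, at L1 means of 8.63 to 9.65.

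Most of the class had RNA above the foreign control level in at least 1 stage. Of the 128, 88 were above it in at least 1 stage: 67 in both, 16 in embryos only and 5 in L1 only. Among all genes, 49.2% were above the level in both stages, 6.37% in embryos only and 8.7% in L1 only, and the class shares were 52.3%, 12.5% and 3.91%. Of the 67, 14 rose and 31 fell, or 20.9% and 46.3%, against 36.6% and 45.3% of all genes of that kind. Being above the level in a single stage nearly fixes the direction, since 96.4% of all genes above it in embryos only fell and 96.1% of those above it in L1 only rose. Of the 16 col genes above it in embryos only, 11 fell (68.8%) and 5 did not pass, and the 5 above it in L1 only rose, and nothing is read from these counts. A further 33 were at the level on every array and 7 were mixed. The 88 had a median difference of -0.24, against -0.06 over the 10998 genes of the array that met the same condition. The genes just inside the condition were *col-149* and *col-184*, whose lowest array in their higher stage read 5.46, and just outside it were *col-148* at 5.43 and *col-91* at 5.42. Raising the level by 1 log2 unit left 53 genes above it.

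The genes higher in fed L1 larvae were few, and *col-103*, *col-39* and *col-80* stood out among them, at about the level of foreign controls or not far above it in embryos. *col-103*, on chromosome IV, read 8.68, 8.75 and 8.45 in fed L1 and 4.99, 4.89 and 4.61 in embryos. All its embryo arrays were under the foreign control level, and no arrays overlapped. Its RNA was therefore at least 9.17-fold higher in fed L1 (difference 3.80, SE 0.12, n = 3 arrays a stage, limma adjusted p = 1.21e-09). *col-39*, on chromosome II and named after its values were seen, read 8.98, 9.24 and 9.03 in fed L1 and 5.21, 5.53 and 5.59 in embryos. Its embryo arrays straddled the foreign control level and lay far under every L1 array. The fitted change was 12.5-fold higher in fed L1 (3.64, SE 0.12, limma adjusted p = 1.56e-09). *col-80*, its neighbour on the chromosome, read 9.56, 9.77 and 9.61 in fed L1 and 6.41, 6.16 and 6.19 in embryos. Here all 6 arrays were above the level, again without overlap, and the gene was 10.5-fold higher in fed L1 (3.39, SE 0.10, limma adjusted p = 7.91e-10). For genes named here and below for the largest changes and limits, lack of overlap was a condition of choice and is no further result.

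A second set of rises lay on chromosome V and was read by probe sets of a design that can also match related sequences. *col-160* read 11.80, 11.74 and 11.40 in fed L1 and 9.07, 9.45 and 8.88 in embryos, and its neighbour *col-159* read 9.34, 9.34 and 9.26 in fed L1 and 6.60, 7.06 and 7.04 in embryos. Neither gene's arrays overlapped between stages. *col-160* was 5.71-fold higher in fed L1 (2.51, SE 0.16) and *col-159* was 5.32-fold higher (2.41, SE 0.13). A second probe set for *col-160* gave 1.26, so the size of its rise depended on the probe set. *col-147* read 11.99, 11.93 and 11.82 in fed L1 and 9.72, 10.31 and 10.16 in embryos, and *col-146* read 10.82, 10.95 and 10.57 in fed L1 and 9.44, 9.04 and 9.35 in embryos. In both genes every L1 array was above every embryo array, by fitted folds of 3.6 and 2.84. The 4 genes share a probe design that allows cross-matches, so they may not be 4 separate measurements.

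*col-98*, on chromosome III, was read by a probe set without that design and showed a rise of like size. It read 8.49, 8.74 and 8.45 in fed L1 and 6.10, 6.41 and 6.20 in embryos. The L1 arrays lay together well above the embryo arrays, and the gene averaged 8.56 ± 0.16 in fed L1 and 6.24 ± 0.16 in embryos (SD, n = 3 each; 2.32, SE 0.12, limma adjusted p = 2.75e-08). *col-118*, on chromosome IV, read 9.07, 9.10 and 8.86 in fed L1 and 7.40, 8.12 and 8.05 in embryos, a 2.23-fold rise. Its embryo A array stood below the other embryo arrays, but no arrays overlapped. The other rises were under 2-fold, such as *col-129* at 0.61 (SE 0.10). *col-153*, above the level in L1 and at it in embryos, was at least 1.12-fold higher, and centred on ribosomal proteins its difference was 0.06 and its call was lost.

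**Figure D2:**
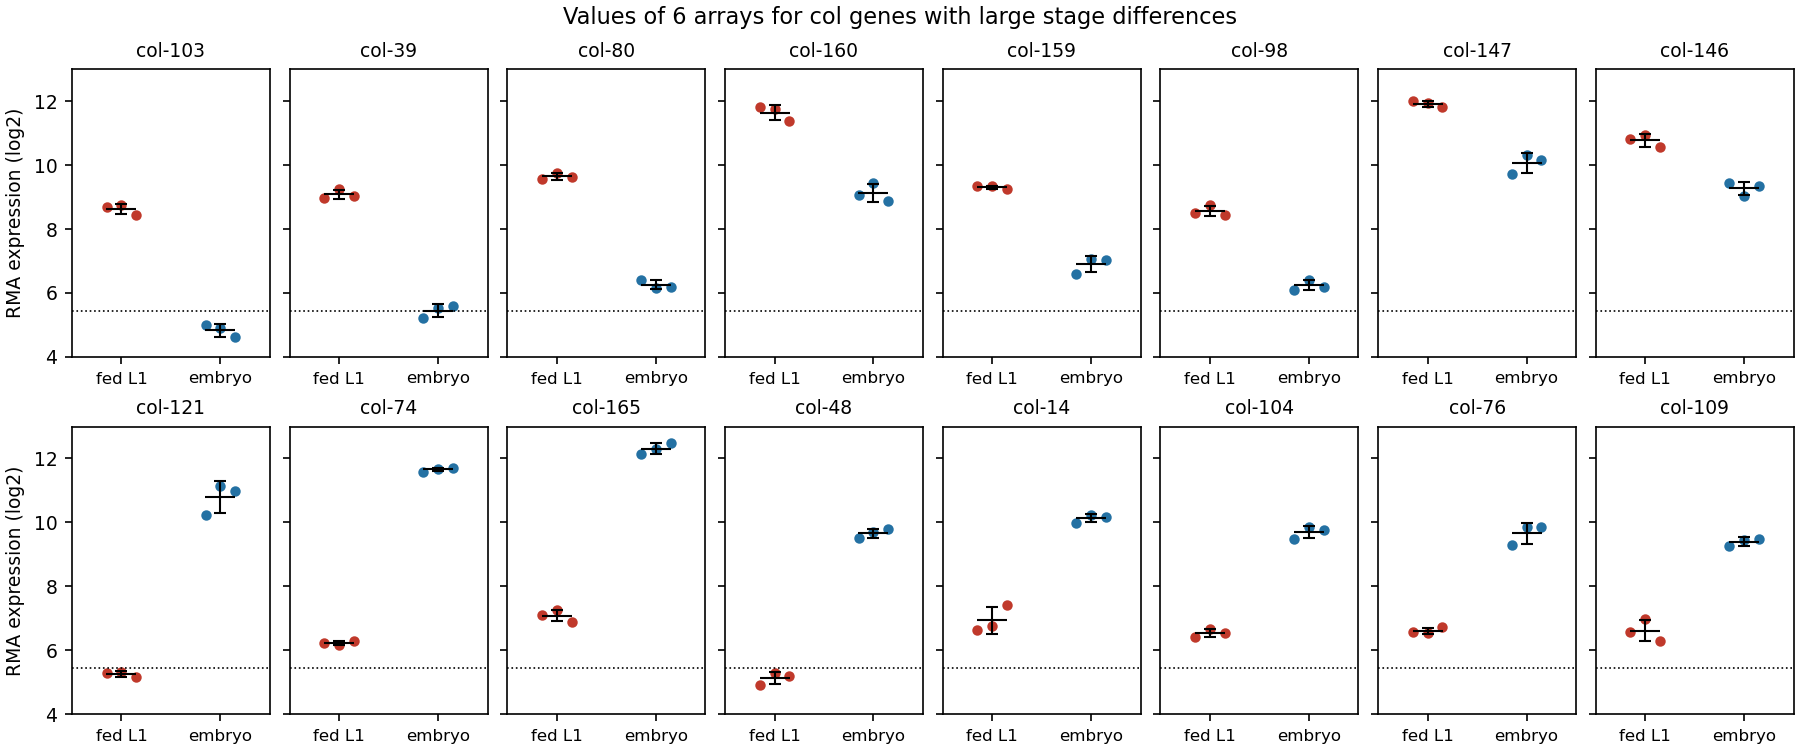
RMA value (log2) on each of 3 fed L1 arrays and, to their right, 3 mixed embryo arrays for 8 col genes that rose (upper row) and 8 that fell (lower row); points are arrays, bars are means with whiskers of 1 SD, and the dotted line is the foreign control level of 5.43. The stages do not overlap in any of the 16 genes, which was a condition of choice for all but *col-39*. In *col-103*, *col-121* and *col-48* all 3 arrays of the lower stage lie under the level.

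The genes lower in fed L1 larvae included larger changes, in 4 genes of more than 16-fold against embryos. *col-74*, on chromosome II, read 6.23, 6.15 and 6.30 in fed L1 and 11.59, 11.68 and 11.71 in embryos. Arrays within a stage agreed to within 0.15, and the stages lay far apart. The gene was 43-fold lower in fed L1 (-5.43, SE 0.09, limma adjusted p = 5.98e-11). *col-165*, on chromosome X, read 7.10, 7.25 and 6.89 in fed L1 and 12.14, 12.29 and 12.49 in embryos. Its RNA was above the foreign control level on all 6 arrays and 37.4-fold lower in fed L1 (-5.22, SE 0.12, limma adjusted p = 1.96e-10).

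*col-121* and *col-48* were above the foreign control level in embryos only. *col-121*, on chromosome IV, read 5.29, 5.32 and 5.16 in fed L1 and 10.24, 11.15 and 10.997 in embryos. Its embryo arrays had the widest spread of any member above the level in that stage, with an SD of 0.49, and embryo A was the lowest of them. Against the level, this probe set read at least 41.1-fold lower in fed L1 (-5.54, SE 0.20, limma adjusted p = 2.62e-09). A second probe set averaged 4.86 in fed L1 and 9.50 in embryos. Its fitted fall, at -4.65, was smaller than that limit, so the limit holds for the first probe set only. Both probe sets of *col-121* are of a kind that a gene family or close copies can share (suffix s). *col-48*, on chromosome I, read 4.92, 5.28 and 5.20 in fed L1 and 9.51, 9.69 and 9.78 in embryos. All its L1 arrays were under the level, and it was at least 18.8-fold lower (-4.53, SE 0.12, limma adjusted p = 3.06e-10).

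Next in size came falls of 6.15-fold to 9.13-fold in *col-14*, *col-104*, *col-76*, *col-109* and *col-97*. *col-14*, one of the early cloned genes of the class, read 6.63, 6.76 and 7.41 in fed L1 and 9.99, 10.23 and 10.15 in embryos. L1 replicate 3 stood above the other L1 arrays, which gave the widest L1 spread of any member above the level (SD 0.42), yet it lay far under the embryo arrays (-3.19, SE 0.18, limma adjusted p = 7.19e-08). *col-104*, on a probe set that also has the suffix s, read 6.41, 6.68 and 6.52 in fed L1 and 9.47, 9.85 and 9.77 in embryos. *col-76* read 6.56, 6.53 and 6.72 in fed L1 and 9.28, 9.86 and 9.85 in embryos. Both were close to 3 log2 units lower in fed L1, at -3.16 (SE 0.12) and -3.06 (SE 0.15), without overlap.

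*col-109* averaged 6.61 ± 0.34 in fed L1 and 9.40 ± 0.13 in embryos (SD, n = 3 each; -2.79, SE 0.16), but a second probe set for it gave -1.15, so only the direction was shared by both. *col-97* averaged 7.22 ± 0.20 in fed L1 and 9.84 ± 0.30 in embryos (-2.62, SE 0.16), and its second probe set gave -2.08. *col-65* read 8.33, 8.53 and 8.16 in fed L1 and 10.54, 10.42 and 10.32 in embryos, and was 4.25-fold lower in fed L1 by a probe set that allows related matches. *col-43*, named after its values were seen and read by the same kind of probe set, averaged 10.84 ± 0.17 in fed L1 and 12.47 ± 0.14 in embryos. It was thus 3.1-fold lower in fed L1 while staying far above the level in both stages.

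Smaller falls among genes at the foreign control level in fed L1 can be given only as lower limits. *col-172* was at least 2.9-fold lower in fed L1, *col-111* at least 2.54-fold, *col-58* at least 2.25-fold and *col-56* at least 1.24-fold. The limit for *col-56* rests on 1 probe set. Its other probe set was at the level on every array and differed by -0.02 without passing. *col-174*, named after its values were seen, read 5.47, 5.37 and 5.56 in fed L1 and 7.19, 7.20 and 6.95 in embryos, a fitted fall of 3.13-fold with its L1 arrays on both sides of the level. Of the 16 genes above the level in embryos only, 7 were at it on every L1 array and 9 were mixed there.

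The 22 genes above the level in both stages that did not pass were not shown to be equal in the stages, and their intervals bound the difference. *col-50* differed by -0.01 (95% interval -0.27 to 0.24) and *col-51*, next to it on chromosome I, by 0.04 (-0.16 to 0.23). *col-41* differed by 0.05 (-0.28 to 0.37) and *col-107* by 0.08 (-0.19 to 0.35). These intervals hold for the deposited scaling. When arrays were centred on ribosomal proteins, *col-50* passed as lower, at -0.37, and *col-51* and *col-107* turned in direction, to -0.31 and -0.27. Across the 62 members that did not pass, differences ran from -0.32 to 0.34. Among the 33 members at the foreign control level on every array, 2 rose and 2 fell, or 6.06% each way, against 16.6% and 5.37% of all such genes. The foreign controls themselves differed between the stages by -0.10 to 0.26, with a median of 0.06.

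Of the 11 measured members named for a known stage or role, *col-19*, *col-38*, *col-40* and *col-49* were at the foreign control level on every array, *col-99* had arrays on both sides of it, and the others were above it in embryos or in both stages. *col-19*, a marker of the adult cuticle, averaged 5.03 in fed L1 and 4.97 in embryos. *col-38*, *col-40* and *col-49* differed by -0.11, 0.05 and 0.02. *col-38* passed as lower after quantile normalization (-0.22) and ribosomal centring (-0.47), and under ribosomal centring *col-19*, *col-40* and *col-49* turned to lower, at -0.29, -0.30 and -0.34. *col-2*, a collagen of the dauer, the arrested larva formed under crowding and starvation, averaged 5.39 ± 0.07 in fed L1 and 5.74 ± 0.19 in embryos. It fell by 0.35 (SE 0.11, limma adjusted p = 0.0189), and the call was lost without L1 replicate 3 (-0.30) or without embryo A (-0.26).

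*col-34* averaged 9.39 in fed L1 and 10.65 in embryos and fell by 1.26 (SE 0.14), which is 2.39-fold. *col-36*, at 6.46 in fed L1 and 6.78 in embryos, fell by 0.33 (SE 0.10, limma adjusted p = 0.0167), a call lost without L1 replicate 1 (-0.28) or embryo A (-0.25). *col-12*, which has a near-identical partner in *col-13*, averaged 9.48 in fed L1 and 9.14 in embryos and differed by 0.34 (95% interval 0.00 to 0.69, limma adjusted p = 0.0742). It passed without L1 replicate 3 (0.45) or embryo B (0.51) and after another quantile normalization (0.50). *col-63* averaged 7.78 ± 0.31 in fed L1 and 8.10 ± 0.13 in embryos and did not pass (-0.32, limma adjusted p = 0.0809), but did without L1 replicate 1 (-0.48) and with arrays centred on their medians (-0.40). *col-99*, which encodes a membrane-spanning collagen rather than a cuticle component, differed by 0.20, and by 0.36 without embryo B, where it passed. A second probe set for *col-99* gave -0.21. *col-1*, *col-7*, *col-10*, *col-13* and *col-62* had no probe set naming them alone.

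Genes of the class lie on every chromosome, and falls outnumbered rises on chromosomes I, II, IV and X. On III the counts were equal, and on V rises outnumbered falls, as they did among all genes there. On chromosome IV, which held 37 members, 18 fell and 7 rose, or 48.6% and 18.9%, against 30.5% and 34% of all genes there. On chromosome V, which held 23, 3 fell and 8 rose, or 13% and 34.8%, against 19.8% and 36.5% of all genes there. The median difference was -0.23 on chromosome IV and 0.20 on chromosome V. The 18 members on I gave 0 rises in the limma fit (1 at an unadjusted p under 0.05), against 25.9% of all genes there, and 6 falls, against 40.1%. The 23 on II gave 2 rises, against 29.7%, and 9 falls, against 34.1%. The 9 on III gave 2 rises, against 31.9%, and 2 falls, against 40.4%. The 18 on X gave 3 rises, against 39.9%, and 6 falls, against 30.9%. No test of the chromosomes was run, and *col-146*, *col-147*, *col-159* and *col-160* on V share the probe design named above.

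**Figure D3:**
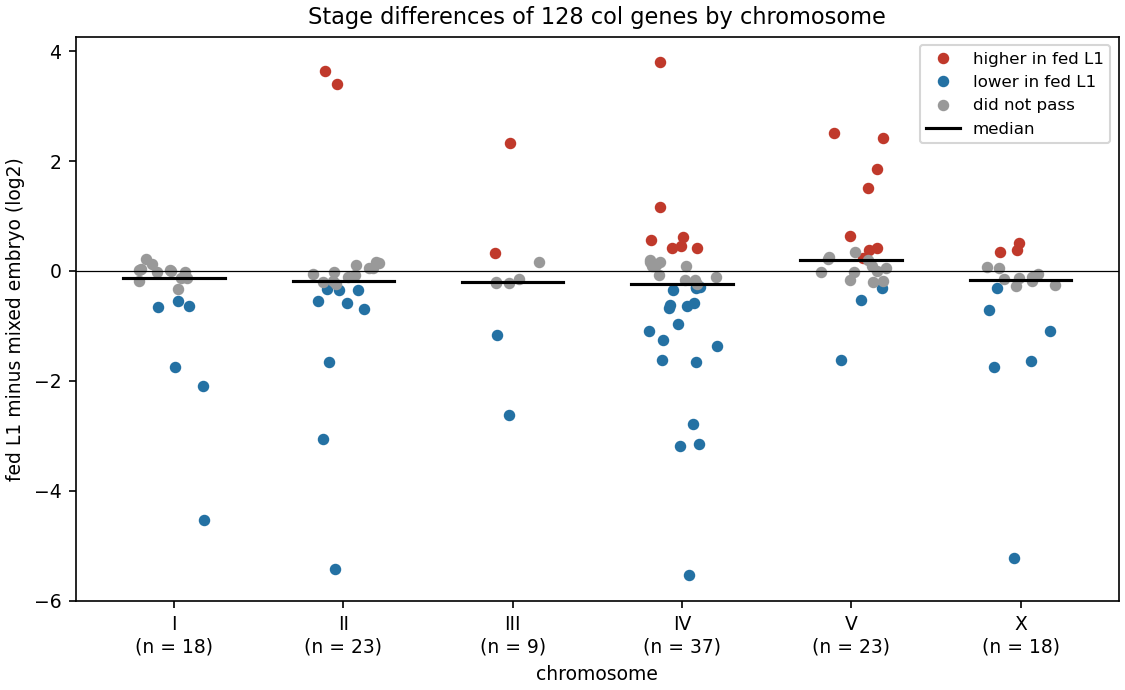
Difference in RMA value (log2, fed L1 minus mixed embryo) of 128 col genes by chromosome; each point is a gene, coloured by its limma call, and bars are medians over 18, 23, 9, 37, 23 and 18 genes on I, II, III, IV, V and X. The median bar is above 0 on V (0.20) and below 0 on the others, down to -0.23 on IV.

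Neighbouring members did not always move together. Chromosome order in the WBcel235 annotation gave 12 pairs of members with no other protein-coding gene between them. In 6 of them both members were above the foreign control level in a stage. Both members were called in the same direction in 4 of the 12 pairs and in opposite directions in 0. In 6 pairs 1 member was called, and in 2 neither was. No like count was made for neighbours among all genes. The 4 include *col-126* and *col-127*, which rose by 0.41 and 0.42. *col-126* was at the level on every array, and a probe set naming both genes fell by 0.46. *col-39* and *col-80* rose by 3.64 and 3.39 and *col-159* and *col-160* rose by 2.41 and 2.51. *col-104* fell by 3.16 and *col-105* fell by 0.63. *col-79*, on the other side of *col-39*, differed by 0.14 and did not pass. *col-149* differed by -0.16 and did not pass, while *col-150* beside it rose by 0.39. Members next to each other can be close in sequence, and their protein identity was not analysed here.

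How a member was probed mattered for what could be told. The members were read by 78 probe sets of the plain kind, 28 of a kind shared by transcripts of a gene family or by close copies (suffix s) and 22 of a kind that allows partial matches to other sequences (suffix x). The x kind made up 17.2% of the members but 3.73% of all genes, and all 22 such members were above the foreign control level in both stages, against 57.1% of all genes read by that kind. Of these 22, 6 rose and 10 fell, or 27.3% and 45.5%, against 31.8% and 32.1% of all genes read by that kind. Among the 78 plain members 13 rose and 25 fell, or 16.7% and 32.1%, against 33.1% and 27.1% of all genes read by plain probe sets. With s and x probe sets left out of the whole fit, which left 80 members, the counts were 13 and 26, against 32.9% and 27.9% of all genes in that fit. A further 17 probe sets that name several genes, a col gene among them, are no members, and 8 of them passed a fit over all probe sets, against 63.3% of all probe sets.

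Of 16 members with a second probe set, 3 had probe sets of opposite sign, namely *col-157*, *col-93* and *col-99*. The x probe set of *col-119* averaged 10.37 in fed L1 and 11.34 in embryos, a fall of 0.97, while its other probe set was at the foreign control level, at 5.07 in fed L1 and 5.13 in embryos. *col-157* likewise fell by 0.53 on its x probe set, at 9.86 in fed L1 and 10.39 in embryos, while its other probe set read 4.89 in fed L1 and 4.76 in embryos. Together with *col-149*, *col-150*, *col-56*, *col-69* and *col-75*, they make 7 members with a probe set above the level in at least 1 stage and another at it on every array. *col-93*, at 13.48 in fed L1 and 13.63 in embryos, differed by -0.15 on one probe set and 0.12 on the other. The members of this paragraph, apart from *col-56* and *col-99*, were chosen after their values were seen.

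The arrays of a stage differed a little more for col genes than for other genes in L1 but not in embryos, where embryo B often read highest. The median SD of the 72 members above the level in L1 was 0.15, against 0.12 for all such genes, and that of the 83 above it in embryos was 0.14, against 0.15. Embryo B was the highest embryo array for 49 of the 83, with a median deviation of 0.09 from the stage mean, against -0.01 over all genes, and embryo A was the lowest for 45. L1 replicate 2 was the highest L1 array for 33 of 72. Without embryo B, 25 col genes rose and 42 fell, against 31.6% and 30.4% of all genes.

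Most genes for proteins that fold and hydroxylate collagen chains had lower RNA in fed L1 larvae, while genes of later steps went both ways. Among 24 measured genes of collagen processing the median was -0.46, with 14 falls, 4 rises and 6 that did not pass. These falls were 58.3% and the rises 16.7% of the list, against 31.2% and 33.2% of all genes. All 7 measured folding enzymes of the endoplasmic reticulum fell. The peptidyl-prolyl isomerase gene *fkb-5* was 13.1-fold lower in fed L1 (-3.71, SE 0.15, limma adjusted p = 5.24e-09), at 7.67, 7.94 and 7.64 in fed L1 and 11.13, 11.70 and 11.54 in embryos. No array of *fkb-5* came near the other stage. Of the prolyl 4-hydroxylase subunits, *pdi-2* fell by 2.47 (SE 0.13), *phy-2* fell by 1.72 (SE 0.11) and *dpy-18* fell by 0.77 (SE 0.13), and *phy-3* was at the foreign control level on every array.

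Among the 4 genes of proteases and inhibitors 1 rose, 2 fell and 1 did not pass. *mlt-11*, which encodes a protein with Kunitz-type protease inhibitor domains needed for moulting, was 21.4-fold lower in fed L1 (-4.42, SE 0.18, limma adjusted p = 6.65e-09). *dpy-31*, which encodes an astacin protease that trims collagen chains outside the cell, was 2.62-fold higher in fed L1 (1.39, SE 0.17, limma adjusted p = 2.7e-05). *bli-4*, whose furin-like protease also cuts collagen chains, differed by 0.10 and did not pass.

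Of the 6 cross-linking genes 2 rose, 1 fell and 3 did not pass. *mlt-7*, a peroxidase gene, read 9.24, 9.27 and 9.29 in fed L1 and 6.34, 6.49 and 6.45 in embryos, and was 7.15-fold higher in fed L1 (2.84, SE 0.09, limma adjusted p = 7.72e-10). *tsp-15*, whose tetraspanin works with the dual oxidase BLI-3, was 4.2-fold higher (2.07, SE 0.11). The arrays of both genes lay wholly apart between stages. *bli-3* itself differed by -0.20 and did not pass. Among secretion genes, *trpp-8* rose by 1.68 (SE 0.10), *tmem-131* fell by 0.93 (SE 0.10) and *sec-23* differed by -0.04 without passing. The percentages of all genes that rose and fell, 33.2% and 31.2%, hold for these lists too.

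**Figure D4:**
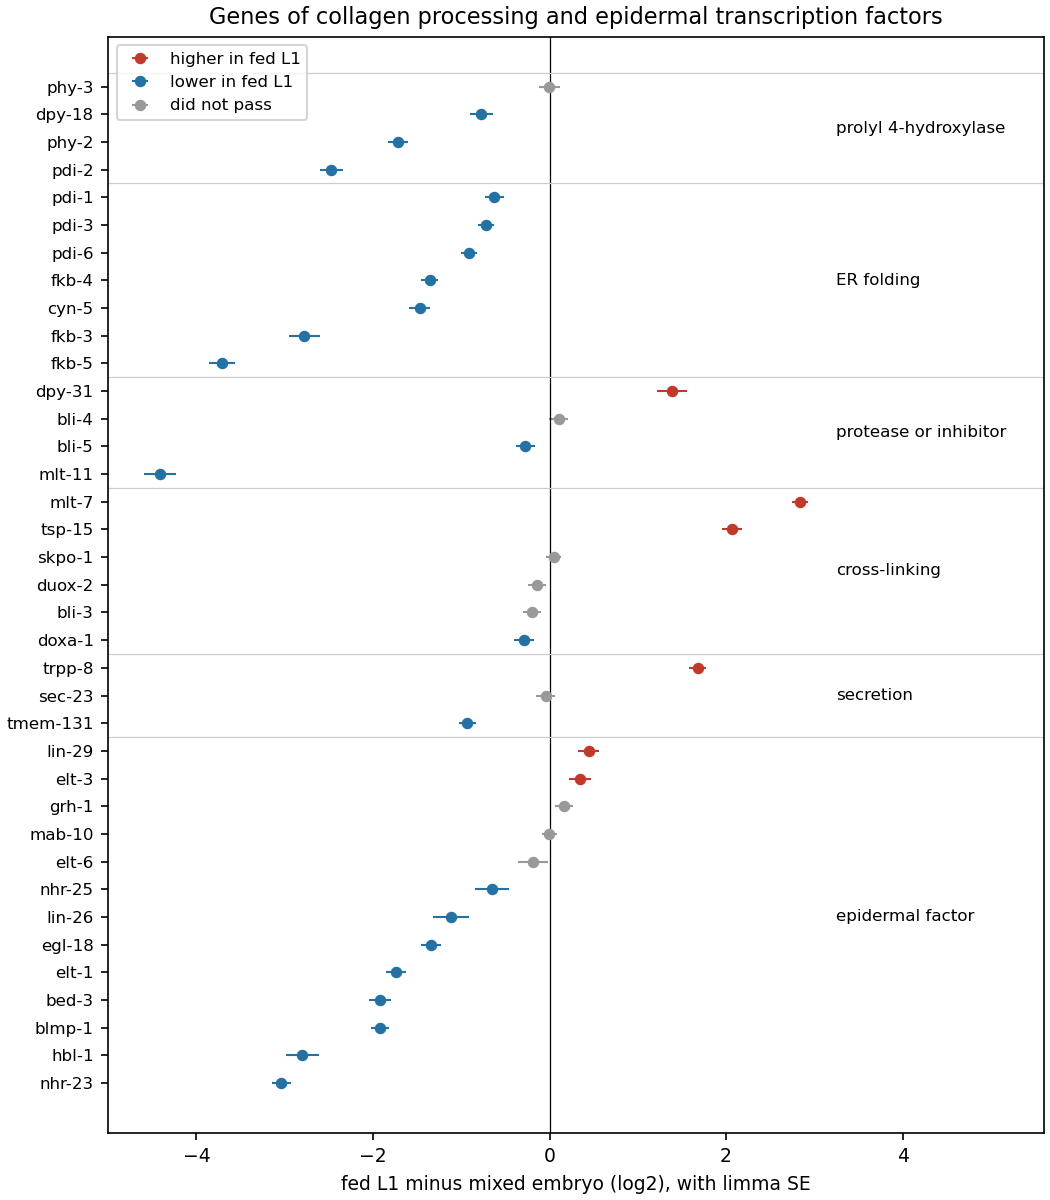
Difference in RMA value (log2, fed L1 minus mixed embryo) with bars of 1 SE for the collagen processing genes, by role, and for epidermal transcription factors, coloured by the limma call. All 7 folding enzymes lie below 0, down to -3.71 for *fkb-5*, while *mlt-7* (2.84), *tsp-15* (2.07), *trpp-8* (1.68) and *dpy-31* (1.39) lie above it.

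Collagens named for the body shape of their mutants, which are cuticle collagens outside the col class apart from *mec-5*, also mostly fell. Their median was -0.68, against 0.05 over all genes. The 19 measured gave 13 falls, 2 rises and 4 that did not pass. Falls made up 68.4% and rises 10.5%, against 31.2% and 33.2% of all genes. *dpy-17* fell by 6.11 (SE 0.11) and *dpy-14* fell by 5.94 (SE 0.12), both beyond any fitted fall within the col class. *mec-5*, which encodes a collagen of the extracellular matrix around touch neurons, rose by 1.76 (SE 0.11). *dpy-8* rose by 0.29 (SE 0.10, limma adjusted p = 0.0245), but with ribosomal centring it turned to -0.0595, and the call was lost without L1 replicate 1 (0.30), L1 replicate 3 (0.23) or embryo C (0.23) and under quantile (0.20) and median scaling (0.22).

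Markers of the epidermis, the tissue that makes these collagens, were also mostly lower in fed L1. Of the 6 markers, 5 fell and 1 rose, or 83.3% and 16.7%, against 31.2% and 33.2% of all genes. Their summed level was 2292 to 3004 per array in fed L1 and 5051 to 6370 in embryos on the linear scale. *dpy-7*, itself a collagen gene counted above among the body-shape collagens, was at the foreign control level on all L1 arrays. The markers *elt-1*, *elt-3* and *lin-26* are also among the 13 epidermal factors below, so these lists are not separate readings. The part of the markers in the falls of the col genes was not tested. The 13 epidermal transcription factors had a median of -1.12, with 8 falls, 2 rises and 3 that did not pass. Their falls made up 61.5% and their rises 15.4%, against 31.2% and 33.2% of all genes. *nhr-23*, which encodes a nuclear receptor that drives moulting genes, fell by 3.04 (SE 0.11), and *hbl-1*, a timing factor gene of the epidermis, fell by 2.80 (SE 0.18). *lin-29*, whose zinc finger protein switches on adult collagens such as *col-19*, was at least 1.2-fold higher in fed L1 (0.44, SE 0.12), and centred on ribosomal proteins it differed by 0.09 and did not pass. *elt-3*, an epidermal GATA factor gene, rose by 0.35 (SE 0.12, limma adjusted p = 0.0299). With ribosomal centring *elt-3* turned to -0.00712, and its call was lost without L1 replicate 1 (0.37), L1 replicate 3 (0.25) or embryo A (0.24) and under median centring (0.27).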

How the data were processed

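Total RNA of 6 samples was measured, 3 of fed L1 and 3 of mixed embryos. Per the submitters' processing notes, the deposited log2 values were made with RMA, which gives each probe set a value on each array. RMA equalises distributions between arrays and compresses low values, so a general change in the RNA of an animal stays unseen. The sources used here do not say whether both stages were normalized jointly. Of 22625 probe sets, 77 controls were left out, 20766 named 1 gene in the platform annotation, 887 named several and 895 named none. All 128 members matched the WBcel235 annotation, which was used for chromosome names and gene order only. Differences came from limma 3.58.1 under R 4.3.3 (lmFit, then eBayes with neither trend nor robust settings, 2-sided) over 17118 genes, with an adjusted p under 0.05 as the threshold, and the steps were tested on simulated data. No pair of arrays was identical.

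The members, the lists and the tests were chosen with earlier results of these data known. Named members were the 8 largest rises and 8 largest falls above the foreign control level in both stages without overlap, the 6 largest limits each way for genes above it in 1 stage, the 4 smallest differences that did not pass, genes with a known stage or role, and neighbours, and in other lists the 2 largest changes each way. Genes named for a limit also had no overlap. The limit on a fold, for a gene at the foreign control level in 1 stage, set the mean of the other stage against the level. That level is a single value for all arrays. Lists were collagen processing, body-shape collagens, epidermal transcription factors, cuticlins, basement membrane collagens and markers of embryo, feeding larva, gravid adult, sperm and epidermis. One processing gene and 3 body-shape genes of the lists had no probe set of their own, as did 3 gravid adult markers. Summed levels are sums of values on the linear scale. The protein identity of members was not analysed here.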

Additional observations from a re-analysis of the deposited data

Results flagged for a closer look

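A further 17 probe sets name several genes with a col gene among them and entered no comparison above. They cover 20 col genes that no other probe set names alone. In the limma fit over all 22548 probe sets, where 63.3% passed, 4 of the 17 rose and 4 fell, and their differences ran from -0.56 to 0.59. A total of 15 were above the foreign control level in a stage, which is why they are given here, with the mean of the higher stage.

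The probe sets for *col-10* and *col-144* had means of 12.96, 12.79 and 12.57, and the second of them rose by 0.40. Those for *col-94* and *col-92* had means of 13.82 and 13.12 and fell by 0.34 and 0.49. Those for *col-155* and *col-154* had means of 12.46 and 11.65, and the dimmer one fell by 0.56. The probe set for *col-3* and *col-117* had a mean of 13.11 and differed by -0.06 without passing. Of the probe sets for *col-166* to *col-170*, that for *col-169*, *col-168* and *col-167* had a mean of 11.20 and rose by 0.40, that for *col-170*, *col-168* and *col-167* had a mean of 11.21 and rose by 0.43, and that for *col-170*, *col-169* and *col-166* had a mean of 11.63 and rose by 0.59. The probe sets for *col-12* and *col-13* had means of 9.15 and 9.30 and did not pass. The probe set for *col-127* and *col-126* had a mean of 6.53 and fell by 0.46, whereas the probe sets of *col-127* and *col-126* alone rose by 0.42 and 0.41. The probe set for *col-62* and *col-7* had a mean of 5.61, and it differed by 0.28 without passing.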

How the results depend on the processing

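No paired analysis was possible because the stages share no replicate numbers. Centred on ribosomal proteins, 10 col genes rose, 89 fell, the median of the 88 col genes was -0.59 and 1 body-shape gene rose, and *col-51* (-0.31), *col-107* (-0.27), *col-19* (-0.29), *col-40* (-0.30), *col-49* (-0.34), *dpy-8* (-0.0595) and *elt-3* (-0.00712) turned in sign. The median was -0.31 after quantile normalization and after median centring, with 1 body-shape rise in each. Above the 50th percentile of mean level, where 51 of 128 col genes were tested, 12 rose and 30 fell. Rises made up 28.6% of these calls, against 44.8% of the calls among all genes tested there. The col median was -0.53, and of 9 body-shape genes tested 1 rose and 7 fell. Without probe sets that allow shared matches, 13 of 80 col genes rose and 26 fell, against 32.9% and 27.9% of all genes tested there. In that setting 9 of 15 processing genes fell, and of 12 body-shape genes 1 rose and 8 fell. With 2-fold required, 9 col genes rose and 22 fell, against 17% and 17.5% of all genes. At that threshold 7 processing genes fell, and 1 body-shape gene rose and 8 fell. A level 1 log2 unit higher left 53 of 88 col genes above it. Leaving out 1 array at a time gave 18 to 25 col rises, 39 to 43 col falls and 1 to 2 body-shape rises. Rises made up 29.5% to 37.3% of the col calls in these fits, against 50.7% to 51.2% of the calls among all genes. Without genes at the foreign control level on every array, an alternative chosen after seeing the data, 20 col genes rose and 42 fell. Of all genes left in that fit, 40.9% rose and 43.3% fell. Of the called members, 13 lost the call without at least 1 array, each with a difference of at most 0.571 in size.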

Other observations

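Cuticlins, insoluble cuticle proteins that are not collagens, were mostly lower in fed L1. Of 34 measured genes with cut or cutl symbols, 23 fell, 4 rose and 7 did not pass the limma fit. Falls made up 67.6% and rises 11.8%, against 31.2% and 33.2% of all genes. The median was -0.67, against 0.05 over all genes. *cut-3*, a zona pellucida domain gene of the L1 ridges called alae, read 5.96, 6.11 and 5.76 in fed L1 and 11.71, 12.12 and 11.82 in embryos. The stages lay far apart, and the gene was 61.3-fold lower in fed L1 (-5.94, SE 0.13). *cut-2* fell by 5.04 (SE 0.11). *cutl-15* rose by 0.72 (SE 0.13) and *cutl-20* by 0.70 (SE 0.12), and with the mean of its probe sets *cutl-20* differed by 0.05 and did not pass.

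The 3 collagen genes of basement membranes, the sheets that underlie tissues inside the body, did not pass the limma fit. *emb-9* differed by 0.22 (SE 0.13), *let-2* by 0.15 (SE 0.16) and *cle-1* by 0.10 (SE 0.10). *emb-9* averaged 11.06 ± 0.17 in fed L1 and 10.84 ± 0.21 in embryos (SD, n = 3 each).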
